A study of Mus musculus with 6 samples.

Results

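The miR-23/27/24 clusters are 2 short groups of microRNA genes that arose by duplication, one holding Mir23a, Mir27a and Mir24-2 (the a cluster, on mouse chromosome 8) and the other holding Mir23b, Mir27b and Mir24-1 (the b cluster, on chromosome 13). They were followed here on 1-colour microRNA arrays of sorted mouse cells. Every array name whose stem is miR-23a, miR-23b, miR-27a, miR-27b or miR-24 was taken, on either arm, which gave 9 of the 690 microRNA names and 22 of the 1928 probes. The 5 names of the 3p arms passed the detection filter and were tested with 217 other microRNAs, while none of the 4 names of 5p arms reached detection on an array. Called mmu-miR-23a-3p, mmu-miR-23b-3p, mmu-miR-27a-3p, mmu-miR-27b-3p and mmu-miR-24-3p on the array, the 3p members are written below without the species prefix.

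Both groups of cells were sorted from transgenic mice that carry GFP as a marker of smooth muscle actin (SMA), a protein of contractile cells, and both lacked CD45, a surface marker of blood cells, and CD31, a surface marker of endothelium. The skin group was GFP-low cells of dermis, which the submitters describe as fibroblast-like. The wound group was GFP-high cells taken 7 days after injury, described as myofibroblasts, the contractile, matrix-producing cells of healing tissue. Each group had 3 preparations on 1 array each, with the titles' own numbers: preparations 1, 2 and 5 are skin, and 3, 4 and 6 are wound. Strain, age, sex and the number of animals in a preparation are not given in the sources used here, and nothing says that preparations came from separate animals, so a p-value here reflects only how far these 6 preparations vary, part of which may be technical. Tissue, injury and GFP level changed together and cannot be told apart. In such bulk samples fewer cells of a type and less RNA per cell cannot be told apart either.

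MicroRNAs are short RNAs that lower the output of messenger RNAs matching their seed, the bases near the 5′ end. Each cluster is known to be transcribed as 1 precursor that is cut into hairpins, from which the 3p arm is the one mostly kept. miR-23 and miR-27 are best known for their part in blood vessel growth and in fat and muscle cell differentiation, and miR-24 for restraining cell proliferation. All of these have been linked to TGF-beta signalling, which drives the change of fibroblasts into myofibroblasts.

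The mature sequences show how close some members are to each other. They come from RefSeq on GRCm38.p6, where 8 of the 9 names were matched, all but miR-23b-3p, and capitals mark the seed (bases 2 to 8). The first is miR-23a-3p, at chr8:84208563-84208583 on the plus strand. The next pair, miR-27a-3p at chr8:84208727-84208747 and miR-27b-3p at chr13:63300760-63300780, share their seed and differ by the single substitution C19U, counted from 1 at the 5′ end of miR-27a-3p. The last, miR-24-3p, is the same molecule from both clusters, at chr8:84208875-84208896 and chr13:63301251-63301272.
miR-23a-3p: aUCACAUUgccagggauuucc
miR-27a-3p: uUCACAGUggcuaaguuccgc
miR-27b-3p: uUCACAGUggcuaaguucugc
miR-24-3p: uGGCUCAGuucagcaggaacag

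The seeds of miR-23 and miR-27 have the run UCACA in common and then part. A probe for miR-27a-3p and a probe for miR-27b-3p face targets that differ at a single base, and the probe sequences were not used here, so how far each probe also binds the other paralog was not tested, for miR-23a-3p and miR-23b-3p as well. For miR-24 only the 5p arms tell the loci apart. The hairpins below show the miR-24-3p arm in capitals, Mir24-1 at chr13:63301208-63301275 and Mir24-2 at chr8:84208815-84208921, both on the plus strand.
Mir24-1: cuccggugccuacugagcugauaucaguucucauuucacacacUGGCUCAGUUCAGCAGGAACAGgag
Mir24-2: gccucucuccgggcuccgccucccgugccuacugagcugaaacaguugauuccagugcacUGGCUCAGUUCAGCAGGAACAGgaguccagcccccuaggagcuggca

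In the RefSeq gene table the b cluster spans 792 bases and lies inside the span of Aopep, a protein-coding gene for an aminopeptidase, beside Fancc. The table does not give exons, so intron or exon was not assigned. The a cluster spans 404 bases, lies inside no protein-coding gene of the table, and has Zswim4 as its nearest protein-coding neighbour. Each cluster also overlaps a Mir3074 gene, and Mir181c and Mir181d are the next microRNA genes beyond the a cluster.

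On the arrays 187 to 233 microRNA names were well above background, and the 75th percentile used for scaling lay between 786 and 1772 intensity units. Over the 222 tested microRNAs the median log2 difference, wound minus skin, was 0.38, and limma called 144 (64.9%) changed, 98 higher and 46 lower in wound cells, at a Benjamini-Hochberg adjusted p under 0.05. With 4 other scalings (by the 75th percentile taken over every probe, by the median, by quantiles, and without any) that median lay between -0.19 and 0.001, and the share of calls that were higher went from 68.1% to 40.6%, 50.0%, 51.1% and 50.0% in that order, so each member is also given relative to the median. The authors' deposited table numbers its columns in an order that matches the array titles for none of the 6 arrays. Groups here follow the array titles. By the table's column numbers, which mix the titled groups, no member passed (adjusted p = 0.920 for each of the 5 in limma).

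All 5 of the 3p members fell in wound cells, with a larger fitted fall for miR-23 than for miR-27 in both clusters (exact permutation p = 0.1 for each cluster, the smallest that test can give here). The fall was 3.99-fold for miR-23b-3p, 2.96-fold for miR-23a-3p, 2.11-fold for miR-24-3p, 1.87-fold for miR-27b-3p and 1.60-fold for miR-27a-3p. The background is 20.7% of tested microRNAs called lower, and 21.2% with all wound values below all skin values. Each of the 5 members showed that separation. Values below are log2 signals relative to each array's scaling percentile, and levels of different members are not compared, since probes differ in brightness.

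miR-23a-3p, the 3p arm of the first hairpin of the a cluster, read 1.99, 2.40 and 2.15 in skin preparations 1, 2 and 5 and 0.67, 0.60 and 0.58 in wound preparations 3, 4 and 6. Skin preparation 2 was the highest, and the lowest skin value lay 1.32 above the highest wound value. The group means were 2.18 ± 0.21 (SD, n = 3) and 0.62 ± 0.04, a difference of -1.57 (SE 0.11, adjusted p = 0.000166 in limma) and -1.95 relative to the median of all tested microRNAs.

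miR-27a-3p, cut from the middle hairpin of the same precursor, read 0.93, 0.71 and 0.96 in skin and 0.39, 0.09 and 0.10 in wound. Here skin preparation 2 was the lowest of its group and wound preparation 3 the highest of its own, and they lay 0.32 apart. The means were 0.87 ± 0.13 (SD, n = 3) and 0.19 ± 0.17, a difference of -0.67 (SE 0.12, adjusted p = 0.00528 in limma). This was the smallest difference of the 5, and -1.05 relative to the median.

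miR-23b-3p, the b cluster counterpart of miR-23a-3p, read 0.58, 1.07 and 0.82 in skin and -1.12, -1.11 and -1.29 in wound. Skin preparation 2 was again the highest, and the groups were 1.69 apart at their nearest. With means of 0.82 ± 0.25 (SD, n = 3) and -1.17 ± 0.10, the difference was -1.997 (SE 0.14, adjusted p = 0.000147 in limma), which was 8th from the lowest among the 222 tested and -2.38 relative to the median.

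miR-27b-3p, which shares its seed with miR-27a-3p, read -1.22, -1.25 and -1.19 in skin and -2.10, -1.98 and -2.28 in wound. The skin values spanned 0.054, and 0.74 separated the groups. The means were -1.22 ± 0.03 (SD, n = 3) and -2.12 ± 0.15, a difference of -0.90 (SE 0.08, adjusted p = 0.000424 in limma) and -1.28 relative to the median.

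miR-24-3p, the product that both clusters share, read 1.61, 1.94 and 1.76 in skin and 0.76, 0.71 and 0.63 in wound. All skin values exceeded all wound values by at least 0.85. The means were 1.77 ± 0.17 (SD, n = 3) and 0.70 ± 0.06, a difference of -1.07 (SE 0.10, adjusted p = 0.000366 in limma) and -1.45 relative to the median. Its level is the sum of what Mir24-1 and Mir24-2 yield, and the array does not divide it.

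**Figure D1:**
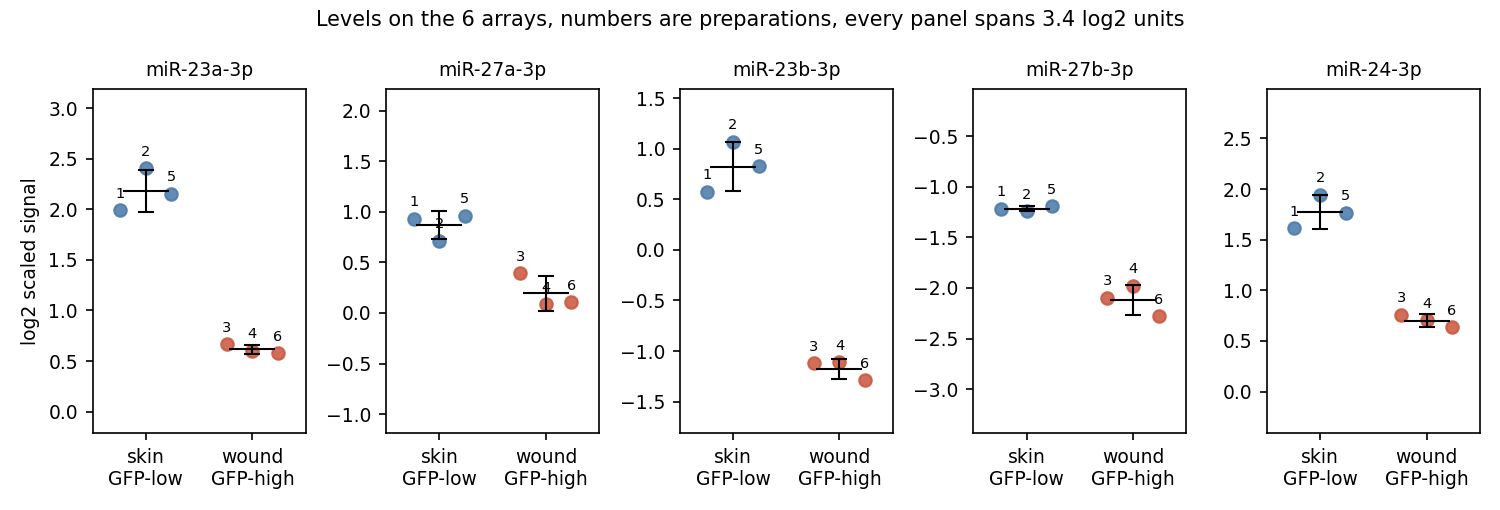
Log2 scaled signal (y axis) of the 5 detected 3p members on each array, with skin GFP-low preparations 1, 2 and 5 in blue and wound GFP-high preparations 3, 4 and 6 in red; the horizontal marks and bars give the mean ± SD of 3. All wound values lie below all skin values in each panel, from 0.32 apart for miR-27a-3p to 1.69 apart for miR-23b-3p.

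Within the skin group, preparation 2 was displaced differently for miR-23 and miR-24 than for miR-27. It lay 0.33, 0.37 and 0.26 above the mean of the other skin preparations for miR-23a-3p, miR-23b-3p and miR-24-3p, and -0.23 and -0.04 from it for miR-27a-3p and miR-27b-3p. Without it the differences were -1.44 for miR-23a-3p, -1.86 for miR-23b-3p, -0.98 for miR-24-3p, -0.74 for miR-27a-3p and -0.90 for miR-27b-3p. All 5 still passed, with adjusted p up to 0.00376 in limma.

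The arrays carry 2 probes of 10 spots for each 3p member, and each of these 10 probes was lower in wound cells when single probes were tested (87 of 402 tested probes were called lower, 21.6%). Probes of 1 microRNA share a target and are not replicates. The 4 probes for miR-23 differed by -1.56 to -2.13 between groups and the 4 for miR-27 by -0.57 to -0.90. The members' values are averages of these same probes, so this order is no separate support for that of the members. For miR-23a-3p both probes gave -1.57 and -1.56, although 1 is several times brighter, and for miR-23b-3p they gave -1.97 and -2.13 (SE 0.14 and 0.15). miR-27a-3p gave -0.70 and -0.57 (SE 0.13 and 0.12), miR-27b-3p gave -0.90 and -0.89, and miR-24-3p gave -1.11 and -1.02.

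The dimmer probe of miR-27b-3p was the faintest of these, with background-subtracted intensities of 168, 133 and 188 in skin and 45.5, 70.6 and 61.5 in wound, all 10 of its spots well above background on each array. The brighter probe of miR-23a-3p, by contrast, read 9921, 10734 and 12634 in skin and 2032, 2768 and 2753 in wound. These intensities are not scaled between arrays, and the skin arrays were brighter in general, so they overstate the contrast between groups. After scaling, the dimmer probe of miR-27b-3p fell 1.85-fold and the brighter probe of miR-23a-3p 2.96-fold. The spread between spots of 1 probe on 1 array (coefficient of variation) was 2.09% to 18.2% over the 10 probes, the highest being for the dimmer probe of miR-27b-3p.

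**Figure D2:**
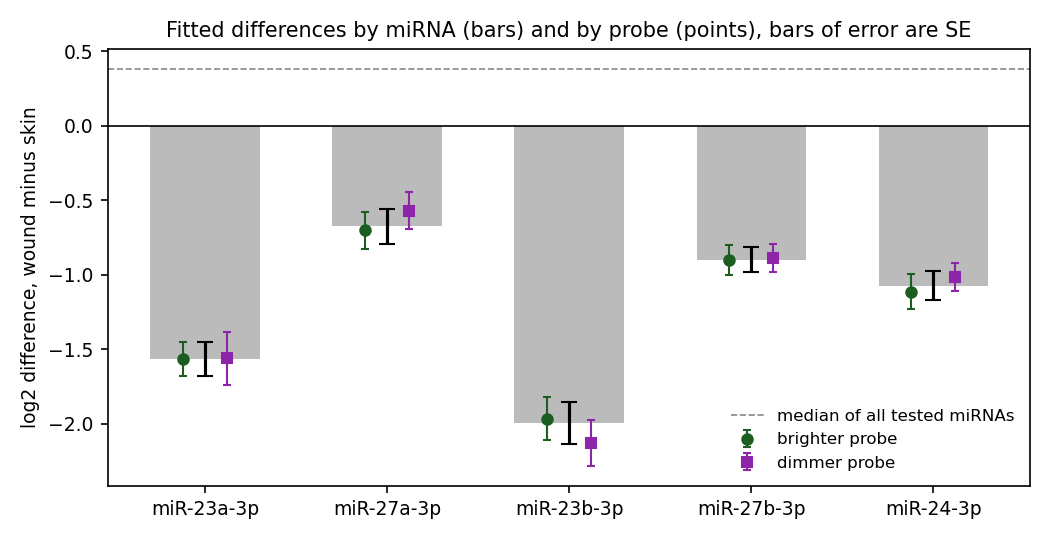
Log2 difference between groups, wound minus skin (y axis), for each 3p member (grey bars, SE as black error bars) and for its brighter (circle) and dimmer (square) probe with SE; the dashed line is the median of all tested microRNAs, 0.38. Both probes of each member lie below 0, with miR-23 probes between -1.56 and -2.13 and miR-27 probes between -0.57 and -0.90.

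To set members against each other, the log2 ratio of 2 members was taken within each array, where the array's scaling cancels, and its change between groups was tested by an exact two-sided permutation test over the 6 arrays. In all 7 pairs were compared, and with 3 against 3 arrays this test cannot give a p below 0.1 (0.14 after Benjamini-Hochberg adjustment over the 7), so it could not pass 0.05 for any pair. Of all 24531 pairs of tested microRNAs, 73.5% had ratios that did not overlap between groups. The 5 of 7 found here lie near that share, and the lack of overlap given below sets none of these pairs apart.

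Within the a cluster, the fall of miR-23a-3p was 1.85 times that of miR-27a-3p as a ratio of folds. Their log2 ratio was 1.06, 1.69 and 1.19 in skin and 0.27, 0.52 and 0.48 in wound, a change of -0.89 (SDs 0.33 and 0.13, n = 3 each, exact permutation p = 0.1). Within the b cluster the ratio of miR-23b-3p to miR-27b-3p went from 1.79, 2.31 and 2.02 to 0.98, 0.87 and 0.99, a change of -1.10 (SDs 0.26 and 0.07, exact permutation p = 0.1). Skin and wound arrays did not overlap for either ratio. Without skin preparation 2, the array with the highest ratio in both clusters, the changes were -0.70 and -0.96. Over 7 processing alternatives the a cluster ratio changed by -0.99 to -0.86 and the b cluster ratio by -1.41 to -0.80.

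Between paralogs the changes were smaller. The fold fall of miR-23b-3p was 1.35 times that of miR-23a-3p. Their ratio of b to a was -1.41, -1.34 and -1.33 in skin and -1.79, -1.71 and -1.87 in wound, a change of -0.43 with no overlap (SDs 0.05 and 0.08, n = 3, exact permutation p = 0.1). For the miR-27 paralogs the change was -0.23 and the arrays overlapped. That ratio was -2.15, -1.96 and -2.15 in skin and -2.49, -2.07 and -2.38 in wound (SDs 0.11 and 0.22, n = 3 each, exact permutation p = 0.3). The change was thus close in size to the SD of the wound arrays. Taking both members of each cluster together, the b cluster mean changed by -0.33 against the a cluster mean, without overlap (exact permutation p = 0.1, n = 3). All 3 of these changes depended on the processing. Under quantile normalization they were -0.61 for miR-23, -0.68 for miR-27 and -0.65 for the cluster means. With normexp (a model of signal plus background) they turned to 0.24, 0.67 and 0.45 when it was fitted on all spots, and were -0.28, -0.023 and -0.15 when flagged spots were left out, a setting chosen after seeing the data.

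The ratio of miR-24-3p to the a cluster mean overlapped between groups, and its ratio to the b cluster mean did not. Against miR-23a-3p and miR-27a-3p its ratio was 0.15, 0.39 and 0.21 in skin and 0.23, 0.36 and 0.29 in wound, a change of 0.05 (exact permutation p = 0.7, n = 3). Against miR-23b-3p and miR-27b-3p it was 1.93, 2.03 and 1.95 in skin and 2.37, 2.25 and 2.42 in wound, a change of 0.37 without overlap (exact permutation p = 0.1, n = 3). The latter was 0.79 under quantile normalization, 0.19 with normexp without flagged spots and -0.50 with normexp on all spots, where the former was -0.045. Since the shared molecule has both sources, neither value says how much of it came from which cluster.

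**Figure D3:**
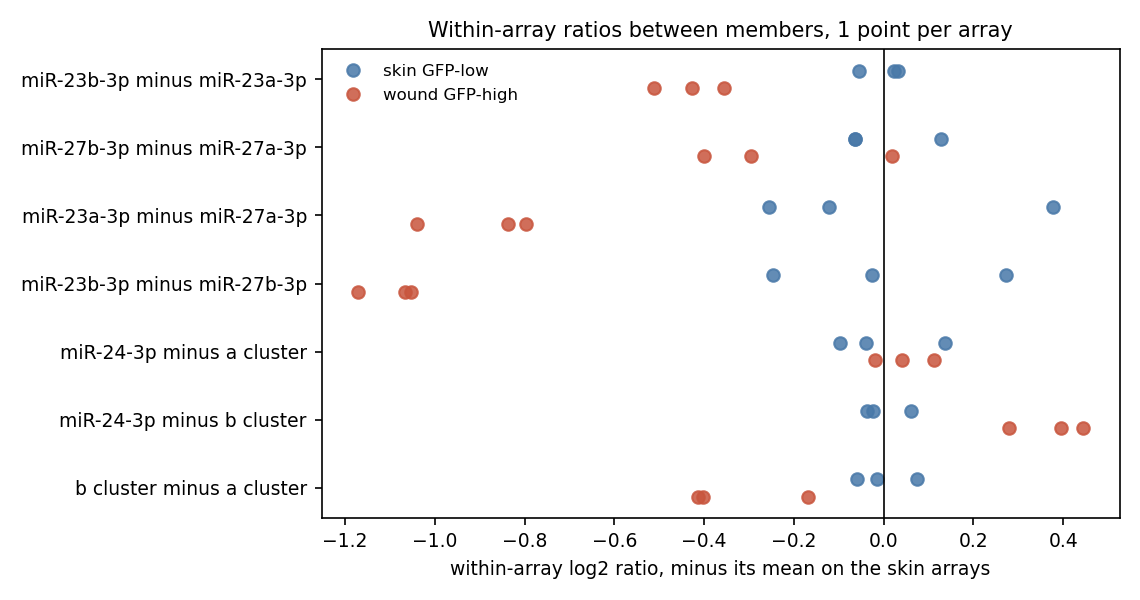
Within-array log2 ratio of 2 members or cluster means (rows), shifted so that the skin arrays average 0 (x axis), with 1 point for each of the 3 skin (blue) and 3 wound (red) arrays. The miR-23 to miR-27 ratios moved most, by -0.89 in the a cluster and -1.10 in the b cluster, and the arrays overlap for miR-27b-3p minus miR-27a-3p and for miR-24-3p minus the a cluster.

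Profiles over the 6 arrays were compared next. The root mean square distance between profiles, each centred on its own mean, was 0.22 between miR-23a-3p and miR-23b-3p and 0.18 between miR-27a-3p and miR-27b-3p. Between miR-23 and miR-27 of 1 cluster it was 0.49 for miR-23a-3p and miR-27a-3p and 0.57 for miR-23b-3p and miR-27b-3p. The smallest of the 10 distances was 0.15, between miR-24-3p and miR-27b-3p, and the largest distance was 0.70, between miR-23b-3p and miR-27a-3p. These distances describe 6 arrays that share their 2 groups, and much of each is the group difference itself.

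Among the 217 other tested microRNAs, those with the profile most like miR-23a-3p were miR-26a-5p at a distance of 0.08, miR-125b-5p and miR-99a-5p, against a median distance of 1.03. Nearest to miR-23b-3p were miR-181c-5p, miR-100-5p and miR-29a-3p, at 0.11 to 0.19 against a median of 1.24. No wound array detected miR-181c-5p, which stood at the floor there, so its distance depends on the floor and its fall is only bounded (at least 3.48-fold). For miR-24-3p they were miR-30c-5p, let-7c-5p and miR-181b-5p, at 0.07 to 0.14 against 0.79. miR-27b-3p had let-7c-5p, let-7b-5p and miR-497-5p at 0.08 to 0.12 against 0.71. miR-27a-3p had miR-199b-5p, miR-101b-3p and miR-30d-5p at 0.09 to 0.15 against 0.63. Of these, miR-101b-3p went undetected in wound cells and stood at the floor, with the same limit on its distance (a fall of at least 1.34-fold). All of the nearest microRNAs named here were lower in wound cells and called so, against 20.7% of all tested microRNAs. They were chosen for profiles near those of the members, so that direction follows largely from the choice and is no separate result. The weakest adjusted p in limma was 0.0172, for miR-101b-3p, which lost its call under 1 of the other scalings.

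**Figure D4:**
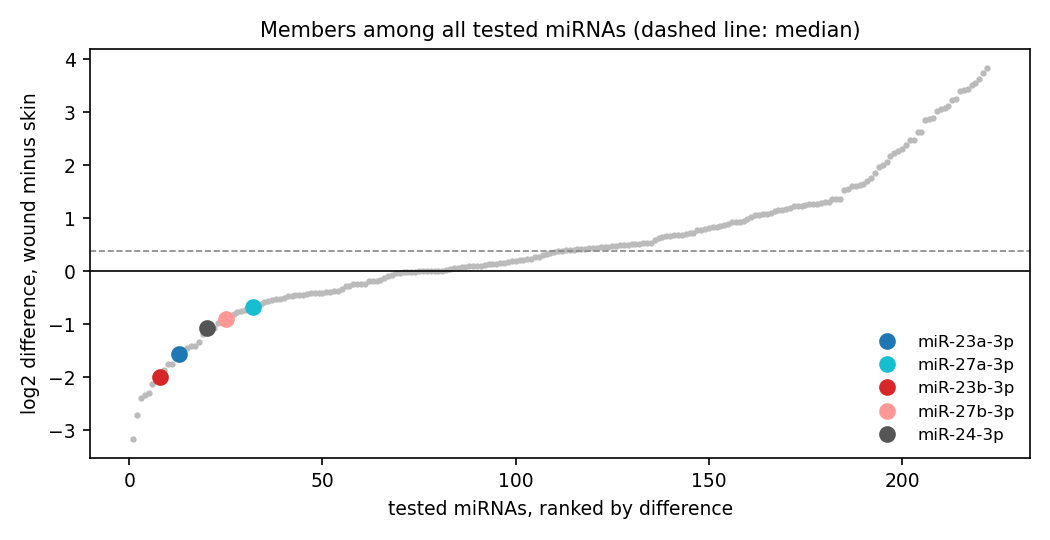
All 222 tested microRNAs ordered by their log2 difference, wound minus skin (grey points; y axis), with the 5 members coloured and the median of 0.38 as a dashed line. The members lie between -1.997 for miR-23b-3p, 8th from the lowest, and -0.67 for miR-27a-3p, 32nd from the lowest.

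The 5p arms, the strands mostly discarded when the hairpins are cut, gave little signal. For miR-27a-5p and miR-27b-5p, with 4 probes of 5 spots each, the scanner software flagged 0 spots as well above background. The miR-24 5p arms were looked at more closely because they alone separate the loci. They are printed here with seeds in capitals, miR-24-1-5p at chr13:63301213-63301235 and miR-24-2-5p at chr8:84208839-84208860, and share their first 16 bases.
miR-24-1-5p: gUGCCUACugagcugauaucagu
miR-24-2-5p: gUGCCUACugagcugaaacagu

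For miR-24-2-5p, of the a cluster, the brighter probe read background-subtracted intensities, not scaled between arrays, of 29.0, 15.5 and 31.2 in skin and 6.01, 7.34 and 12.1 in wound, with at most 5 of 10 spots well above background on an array. For miR-24-1-5p, of the b cluster, the brighter probe read 16.6, 11.6 and 25.2 in skin and 6.25, 0.49 and 3.93 in wound, with at most 2 of 10 such spots. In both, the 3 skin arrays read higher than the 3 wound arrays. The skin arrays were also brighter in general, with scaling percentiles of 1487, 1244 and 1772 against 786, 1095 and 1136 for wound. Scaled by these percentiles and averaged over probes, miR-24-2-5p read 0.0089 to 0.0166 in skin and 0.0035 to 0.0064 in wound. For miR-24-1-5p the scaled values were 0.0048 to 0.0081 in skin and 4.3e-05 to 0.0020 in wound. The order thus held after scaling, but all of these values lie below the floor, and the difference was not tested. Neither met the detection rule on any array, so no fold or test is given, and a change of either locus was not detectable by its 5p arm at this signal. The scanner software's total signal stood above its lowest constant on 2 arrays for miR-24-2-5p and on 1 for miR-24-1-5p, all of them skin. That signal is not scaled between arrays either.

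miR-128-3p has a seed with 6 bases in common with that of miR-27, set off by 1 position. No array detected it. Its sequence is shown to make the shared run visible: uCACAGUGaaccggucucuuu, with capitals for its seed.

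A list of 25 microRNAs widely described as acting on TGF-beta signalling or being regulated by it, without the members, moved in both directions. Of its 16 tested names 8 were higher and 6 lower in wound cells and 2 did not pass, against 44.1% higher and 20.7% lower over all tested microRNAs, with a median of 0.23 against 0.38. Across the 5 scalings 4 to 8 were higher and 6 to 8 lower. The smallest p belonged to miR-29a-3p, which targets collagen transcripts (-1.75, SE 0.07), miR-143-3p of smooth muscle (1.24, SE 0.06) and miR-21a-5p, linked to fibrosis (2.24, SE 0.10).

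A list of 23 microRNAs described in blood vessel growth, the setting miR-23 and miR-27 are best known for, had 20 tested names, of which 10 were higher, 5 lower and 5 did not pass, beside 44.1% higher and 20.7% lower over all tested microRNAs. Its median was 0.47 against 0.38 for all, and its lowest median over the 5 scalings was -0.21 against -0.19. Across those scalings 3 to 10 were higher and 5 to 8 lower. miR-10b-5p, encoded in a Hox gene cluster, fell by 3.17 (SE 0.11). miR-132-3p, at the floor in the skin mean, was 2.01 above it in wound cells, and miR-18a-5p of the miR-17-92 cluster 1.62 above it. These were well above background on 2 and 1 of the skin arrays.

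Markers of other cell types were set beside the members' fall. Endothelial miR-126-3p differed by 0.50 without passing (adjusted p = 0.110 in limma), and turned sign with the scaling. Its partner miR-126-5p was undetected, and their summed scaled signal was 0.0362 to 0.0583 in skin and 0.0555 to 0.0773 in wound. Of 6 blood cell names none was tested, and miR-142-3p, miR-142-5p, miR-223-3p, miR-144-3p and miR-150-5p were undetected on the 6 arrays. The remaining name, miR-451a, was detected on some array but not on every array of either group. The summed scaled signal of the blood cell list was 0.0160 to 0.0321 in skin and 0.0272 to 0.0356 in wound. None of 3 striated muscle names was detected.

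Epithelial markers fell together with the members. Of 7 names 2 were tested and both were lower, miR-203-3p at least 2.32-fold and miR-205-5p at least 1.60-fold, with no wound array well above background, while the 5 of the miR-200 group were undetected throughout. The list's summed scaled signal was 0.119 to 0.203 in skin and 0.00505 to 0.0092 in wound. miR-203-3p read -4.12, -3.32 and -4.11 in skin preparations 1, 2 and 5. It was highest in preparation 2, as were miR-23a-3p, miR-23b-3p and miR-24-3p, whereas miR-27a-3p and miR-27b-3p were lowest there. Among non-epithelial names miR-26a-5p, miR-125b-5p and let-7c-5p had this peak too. They were picked for profiles near those of miR-23a-3p or miR-24-3p, so their sharing it follows largely from that choice. Others, such as miR-497-5p, were lowest in preparation 2, and the share over all tested microRNAs was not counted. The part of epithelial cells in the members' difference was not tested. The smooth muscle pair miR-143-3p and miR-145a-5p was higher in wound cells (1.24 and 0.65, the latter close to the floor and called under 2 of the 5 scalings). Of the mesenchymal names, present in both groups, miR-199a-3p was lower by -0.62, and miR-199a-5p (-0.002) and miR-214-3p (0.45) did not pass. Of these, miR-199a-5p was called lower under 2 of the 5 scalings and higher under 1, so its direction turned with the scaling. miR-214-3p was called higher under 1 and kept its sign under 3. Across the scalings 0 to 2 of the 3 names were called higher and 1 to 2 lower, and the list's median lay between -0.69 and 0.21.

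The slide held its arrays in 2 rows, each with both groups. Within the first row (skin 1 and 2, wound 3) and the second (skin 5, wound 4 and 6) the differences were -1.53 and -1.56 for miR-23a-3p, -1.94 and -2.03 for miR-23b-3p, -1.02 and -1.10 for miR-24-3p and -0.86 and -0.94 for miR-27b-3p. miR-27a-3p was the least even, with -0.43 and -0.86. With the row as a block all 5 passed, with adjusted p up to 0.0175 in limma. The miR-23 to miR-27 ratios changed by -1.10 and -0.70 in the a cluster and by -1.08 and -1.09 in the b cluster, while the ratio of miR-27b-3p to miR-27a-3p changed by -0.43 and -0.08.

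**Figure D5:**
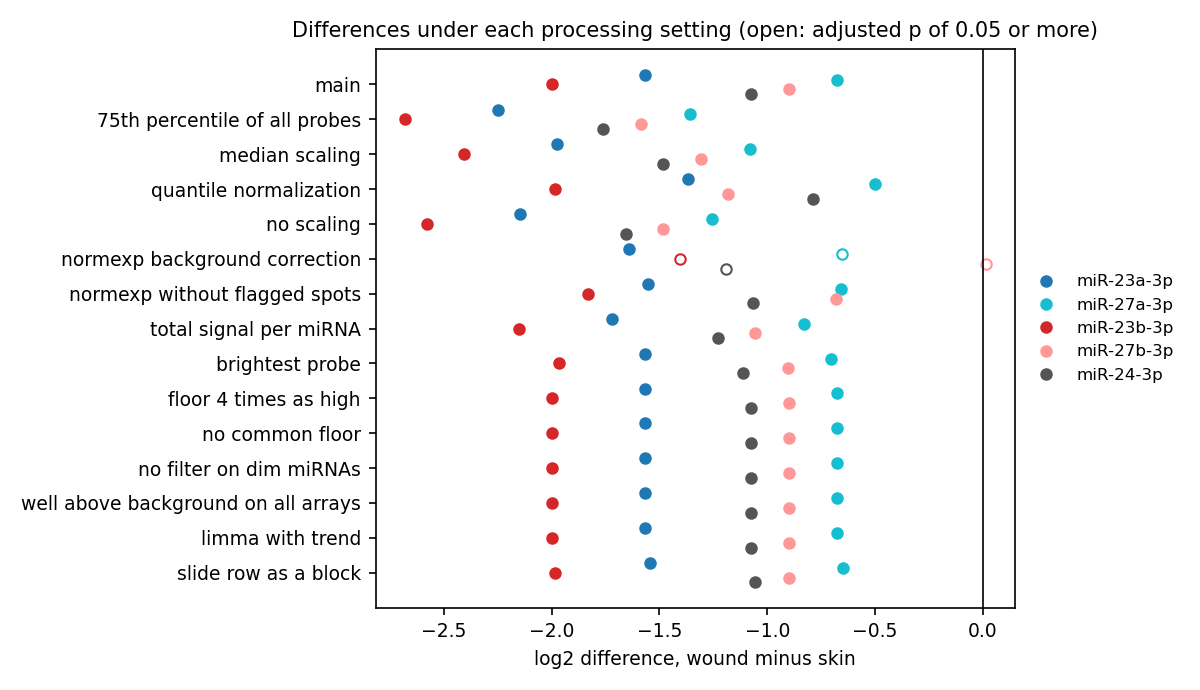
Log2 difference, wound minus skin (x axis), of the 5 members under the main processing and 14 alternatives that keep all 6 arrays and the titles' groups (rows); filled points have an adjusted p under 0.05 and open points do not. Except with normexp background correction fitted on all spots, each member stays below 0 and passes, miR-23b-3p between -2.68 and -1.83 and miR-27a-3p between -1.36 and -0.50.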

How the data were processed

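Cy3-labelled total RNA was read on 6 arrays of 1 slide with Agilent Feature Extraction 10.7.3.1, per the file headers, whose grid names mm9. What was deposited per array is the scanner's spot intensity (linear, not normalized between arrays) with a 0 or 1 flag for each test of a spot. The authors' deposited log2 table was, per the labels, processed in GeneSpring, with steps not given in the sources used here. The processed signal was averaged over spots without outlier flags, scaled by that array's 75th percentile (taken over probes well above background everywhere, meaning over 50% of spots flagged so), averaged over probes, raised to a floor of -5.30 (log2) and taken to log2. A name entered the test if a probe met that rule on every array of at least 1 group of 3, and was tested with limma 3.58.1 (R 4.3.3; lmFit, eBayes, two-sided, Benjamini-Hochberg at 0.05), checked on simulated data. A bound ("at least") sets the detected group's mean against the other group's mean of, per array, the lowest signal well above background. Within-array ratios used exact permutation tests. Named microRNAs are all members, the 3 nearest profiles of each, miR-128-3p and, of each list, the 3 smallest p. Members and lists, written from general knowledge, were chosen with earlier results of these data known. Figures used matplotlib 3.10.9.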

Additional observations from a re-analysis of the deposited data

How the results depend on the processing

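Over 13 alternatives (scaling, summary, floor, filter, trend, slide row, and normexp without flagged spots, chosen after seeing the data) each of the 5 members kept its direction and its call, and leaving out any 1 preparation ended none of their calls (adjusted p in limma up to 0.0229; up to 0.0395 over the 13). Normexp fitted on all spots was the exception. It called 22 microRNAs in place of 144, and gave -0.65 for miR-27a-3p, -1.40 for miR-23b-3p, -1.19 for miR-24-3p (adjusted p = 0.174, 0.0524 and 0.0736) and 0.012 for miR-27b-3p (adjusted p = 0.983), where the median of all tested microRNAs was 1.03. The changes in ratio became 0.24 for miR-23b-3p to miR-23a-3p, 0.67 for miR-27b-3p to miR-27a-3p, -1.41 for miR-23b-3p to miR-27b-3p, -0.045 and -0.50 for miR-24-3p to the a and b clusters and 0.45 for b to a. On the 3 arrays of the second slide row single spots had a local background of up to 13207 to 165344 units (array medians 49 to 55.5 on all 6), and normexp then set the median dim spot to 376 to 1559 against 76.7 to 83.4 on the other arrays. Without flagged spots that median was 76.3 to 83.7 on every array and 154 microRNAs were called; the ratio changes were then -0.28 for miR-23b-3p to miR-23a-3p, 0.19 for miR-24-3p to the b cluster and -0.15 for b to a. Under quantile normalization they were -0.61 for miR-23b-3p to miR-23a-3p, -0.68 for miR-27b-3p to miR-27a-3p, -0.80 for miR-23b-3p to miR-27b-3p, 0.79 for miR-24-3p to the b cluster and -0.65 for b to a, and the cause was not tested.

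A floor 4 times as high gave 78 calls and left-out preparations 127 to 136. The change of miR-24-3p against the a cluster was -0.0030 to 0.11 with 1 preparation left out. In the authors' deposited table the columns named for skin 1 and 2 equal the arrays of wound 3 and 4. Those named for wound 4 and 6 equal the arrays of skin 1 and 5, so a comparison by column number mixes the titled groups. By these column numbers 1 microRNA was called. The differences were then 0.59 for miR-23a-3p, 0.51 for miR-27a-3p, 0.66 for miR-23b-3p, 0.45 for miR-27b-3p and 0.44 for miR-24-3p. The ratio changes were 0.076 (miR-23b-3p to miR-23a-3p), 0.081 (miR-23a-3p to miR-27a-3p), 0.21 (miR-23b-3p to miR-27b-3p), -0.11 and -0.12 (miR-24-3p to the a and b clusters) and 0.0094 (b to a). No paired analysis was possible because the groups share no replicate numbers. Signal over background limited the 5p arms.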
